A study of Mus musculus with 6 samples.

Results

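In 1568 places in the mouse genome, all 6 libraries of a CUT&RUN study of estrogen receptor alpha (ERα) held a peak within 1 kb of an end of a single protein-coding gene. These regions were chosen by measured values, the presence of a peak in every list, and by position. Peaks of the 6 lists that overlapped or touched were merged into 39374 regions, 2863 of these held a peak from every library, and the 1568 were those near exactly 1 gene. They make up 3.98% of all regions and 54.8% of those found in every library. The other constant regions lay near ends of at least 2 genes (493), inside genes away from their ends (456) or outside genes (346). The 1568 regions belonged to 1544 genes, 7.05% of the 21887 protein-coding genes of the annotation, and 24 of the genes had a pair of them.

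CUT&RUN uses an antibody, here to ERα, to bring a nuclease to a protein on chromatin, and the fragments it releases are sequenced. All nuclei came from the limbic system of adult C57/BL6 males whose gonads had been removed at an age of 10 to 12 weeks. After 3 weeks, males for 3 of the libraries were given 5 µg of estradiol benzoate, an ester of estradiol, under the skin, and males for the other 3 were given corn oil, the vehicle, so the controls too lacked gonadal hormone. Nuclei were isolated 4 hours after the injection. The labels are silent on whether replicate libraries stand for separate animals or for pools, so the p-values below measure only the spread between libraries, which may be technical. No library made without the ERα antibody was analysed here.

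ERα is a ligand-activated transcription factor that binds a palindromic DNA element, the estrogen response element, mostly at enhancers away from gene starts. Gene starts themselves are often open stretches of DNA rich in CpG that hold short elements for general factors. One of these elements is the CCAAT box, the site of the trimeric factor NF-Y, which is common in promoters of cell cycle, endoplasmic reticulum stress and cholesterol synthesis genes.

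The promoter sequences of 7 of the highest members are shown with their CCAAT boxes. The median summit of each lay 3.5 to 20.5 bp from the centre of a box. Of the 20 members with the highest peaks, by mean rank over the 6 libraries, 15 had a gene start in the RefSeq promoter table (GRCm38.p6, the coordinates of mm10). The 7 are those whose summit, taken as the median over libraries, lay in the 200 bases before that start. A further 5 had the summit outside these bases, 3 overlapped the annotated gene by more than 30 bases, and none of these are printed. Among them, the summit lay 7 to 17.5 bp from a box in Tmem218, Klf6, Add1, Poc5 and Cnep1r1. It lay far from any box of the window in Camta1 (summit at -273 bp from the start, nearest box at -158 bp). The same held in Fdxr (-272 and -159 bp), and Rap2a had no box in its window. Each sequence runs 5′ to 3′ in the direction of its gene and ends at the base before the start. Capitals mark CCAAT or its reverse complement ATTGG.
Top2a: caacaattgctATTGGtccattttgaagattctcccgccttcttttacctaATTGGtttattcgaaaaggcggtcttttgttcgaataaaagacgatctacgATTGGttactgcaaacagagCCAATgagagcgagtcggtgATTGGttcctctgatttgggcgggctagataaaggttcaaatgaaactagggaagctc
Tmem94: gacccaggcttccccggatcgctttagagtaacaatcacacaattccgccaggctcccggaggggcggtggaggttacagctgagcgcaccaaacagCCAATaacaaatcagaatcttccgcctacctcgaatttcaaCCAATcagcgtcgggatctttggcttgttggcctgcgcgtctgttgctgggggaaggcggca
Iars: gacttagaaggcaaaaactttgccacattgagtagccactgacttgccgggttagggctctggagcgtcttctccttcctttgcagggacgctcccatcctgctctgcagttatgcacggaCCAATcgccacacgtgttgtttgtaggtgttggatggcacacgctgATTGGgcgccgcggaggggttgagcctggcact
Hnrnpab: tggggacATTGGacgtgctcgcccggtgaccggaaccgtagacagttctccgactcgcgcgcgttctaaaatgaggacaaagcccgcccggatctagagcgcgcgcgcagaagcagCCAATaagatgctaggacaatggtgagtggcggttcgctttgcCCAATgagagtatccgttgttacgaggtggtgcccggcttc
Enpp4: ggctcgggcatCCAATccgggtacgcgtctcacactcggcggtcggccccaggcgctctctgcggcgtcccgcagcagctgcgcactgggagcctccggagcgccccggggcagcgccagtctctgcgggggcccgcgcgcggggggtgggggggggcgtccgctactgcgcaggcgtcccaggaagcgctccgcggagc
Ankrd54: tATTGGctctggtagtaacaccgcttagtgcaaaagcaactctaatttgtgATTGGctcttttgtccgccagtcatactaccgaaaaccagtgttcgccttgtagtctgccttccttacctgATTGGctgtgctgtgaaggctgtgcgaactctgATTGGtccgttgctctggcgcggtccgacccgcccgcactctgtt
Coq7: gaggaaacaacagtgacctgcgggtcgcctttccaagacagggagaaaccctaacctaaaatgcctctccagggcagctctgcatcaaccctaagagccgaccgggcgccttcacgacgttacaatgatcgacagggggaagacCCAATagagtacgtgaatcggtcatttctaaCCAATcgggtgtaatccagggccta

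The printed bases of Top2a are chr11:99024190-99024389 on the minus strand, and those of Tmem94 are chr11:115765233-115765432 on the plus strand. For Iars they are chr13:49681930-49682129 on the plus strand, and for Hnrnpab chr11:51606882-51607081 on the minus strand. Enpp4 has chr17:44105810-44106009 on the minus strand, Ankrd54 has chr15:79062919-79063118 on the minus strand, and Coq7 has chr7:118533357-118533556 on the minus strand. In Top2a, which encodes the topoisomerase that untangles DNA in mitosis, the median summit lay at -86.5 bp from the start (negative is upstream), between CCAAT boxes centred at -96 and -76 bp. In Tmem94 it lay at -77.5 bp, between boxes at -101 and -60 bp. In Iars, the cytosolic isoleucyl-tRNA synthetase, it lay at -73.5 bp, beside a box at -77 bp. In Coq7, an enzyme of ubiquinone synthesis, it lay at -39 bp, between boxes at -54 and -23 bp. Of the 20 highest members, 14 had a promoter window that overlapped the region, all 14 windows held a CCAAT box and 13 held more than 1.

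Peak heights are the authors' own values, made for each list separately, so they were used to rank regions within a library. The height percentile of a region is its rank by −log10 q among the 2863 regions found in all 6 libraries. The number of fragments at a summit was recovered from the deposited fold and p-value. The Top2a region (chromosome 11, 99024186 to 99024448) was among the highest members. Its summit held 75, 128 and 214 fragments in replicates 1, 2 and 3 of the vehicle group and 105, 100 and 227 in those of the estradiol group. Cdc25c, the phosphatase that activates Cdk1 at mitotic entry, had 84, 134 and 208 against 93, 119 and 199. In both regions the vehicle and estradiol counts interleaved, and replicate 3 was the highest library of either group.

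**Figure D1:**
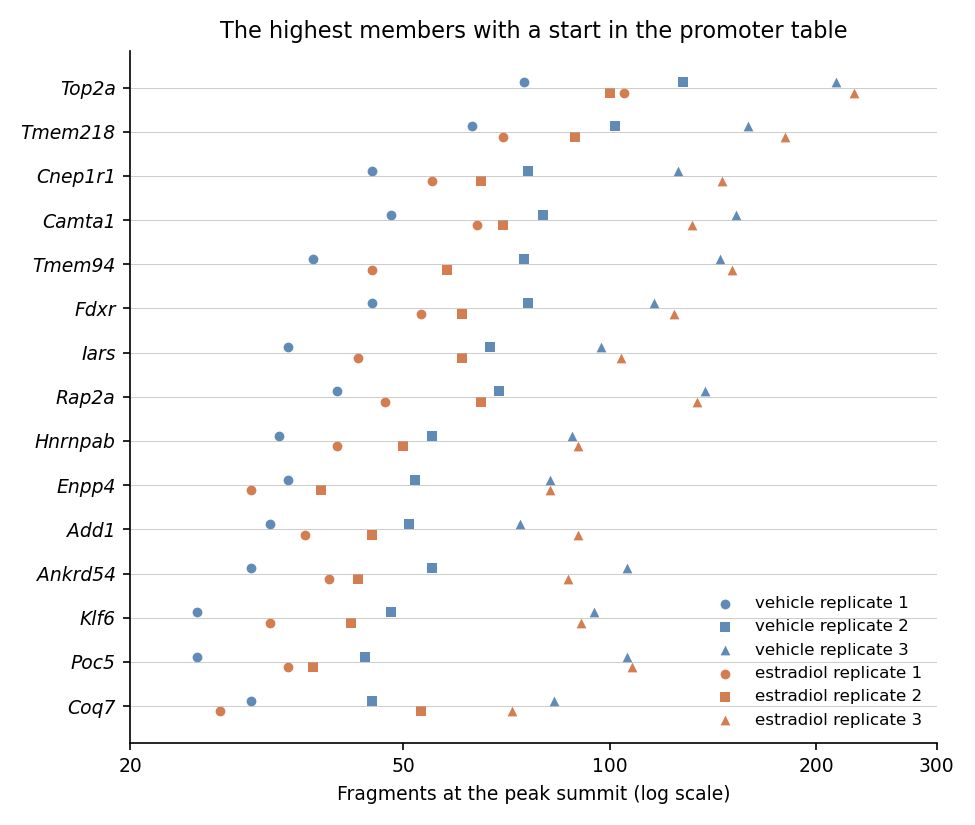
Fragments at the summit (log scale) of the 15 members among the 20 with the highest mean percentile that have a start in the promoter table, one point per library, with colour for treatment and shape for replicate. Top2a leads with 75 to 227 fragments, and vehicle and estradiol points interleave while both replicate 3 libraries lie to the right.

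The remaining members of the top 20 included genes of several roles. Cell division and DNA copying were represented by Gins2, a subunit of the replicative helicase, with 26, 48 and 85 fragments in vehicle and 36, 41 and 100 in estradiol, and by Poc5, a centriole protein, with 25, 44 and 106 against 34, 37 and 108. Fdxr, the mitochondrial ferredoxin reductase, had 45, 76 and 116 against 53, 61 and 124. Klf6, a zinc finger transcription factor of the immediate early class, had 25, 48 and 95 against 32, 42 and 91. The regions of Rap2a, a small GTPase, and Arid4a lay 537 and 563 bp from the gene end. The summit of Rap2a was at -793 bp, and its promoter window held no CCAAT box. At the other extreme, the 5 lowest members were at C1qtnf6, Sec22a, Lpcat3, Stpg2 and Tmem106c, with mean percentiles of 7.07 to 6.25. Tmem106c had 4, 5 and 8 fragments in vehicle and 5, 7 and 7 in estradiol.

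Most members stood on few fragments. The median member held 8, 12 and 17 fragments in vehicle replicates 1, 2 and 3 and 11, 13 and 13 in the estradiol libraries. The lowest summit held 4. Only 477 members (30.4%) held at least 10 fragments in every library, 74 (4.72%) held at least 20, and 318 (20.3%) rested on 4 or 5 in at least 1 library. The lists differed in length, with 5421, 13717 and 20541 peaks for vehicle and 11082, 14123 and 17558 for estradiol, and without vehicle replicate 1, the shortest, the same rule gave 2368 regions.

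The rule took either end of a gene, and strand did not enter it. Of the 1309 members whose gene had a strand in the promoter table, 1291 (98.6%, exact 95% interval 97.8 to 99.2) lay at the end where the gene starts. A further 259 members had no entry and were not assigned. Among constant regions near several genes, 302 of 382 with strand for every gene (79.1%) had a start at each of the ends. The 18 members at the far end included 3 linker histone genes, H1f2, H1f3 and H1f5, whose regions lay 148, 282 and 264 bp past the gene. H1f3 held 18, 21 and 52 fragments in vehicle and 34, 18 and 33 in estradiol. Rara, the retinoic acid receptor alpha gene, also had its region past the far end, by 574 bp, with 6, 4 and 10 fragments against 4, 6 and 9. Both sets of counts overlapped between treatments.

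Members were narrow, with a median width of 225 bp (range 54 to 683), and 1007 (64.2%) overlapped the gene end itself. Among the 1291 at gene starts, the median summit lay at -90 bp, with quartiles of -156 and -46.8 bp. The summit was upstream of the start in 1173 (90.9%) and within 250 bp upstream in 1009 (78.2%). In 43 members it was more than 1 kb from the start in the table. Per1, a core clock gene, was one of them. Its region overlapped the start of the annotated gene span. The promoter table lists a start farther into the gene, and the summit lay at -3920 bp from that start. The 6 summits of a member spread over a median of 68 bp (quartiles 43 and 105), beside 68, 58 and 55.5 bp in constant regions near several genes, inside genes and outside genes.

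**Figure D2:**
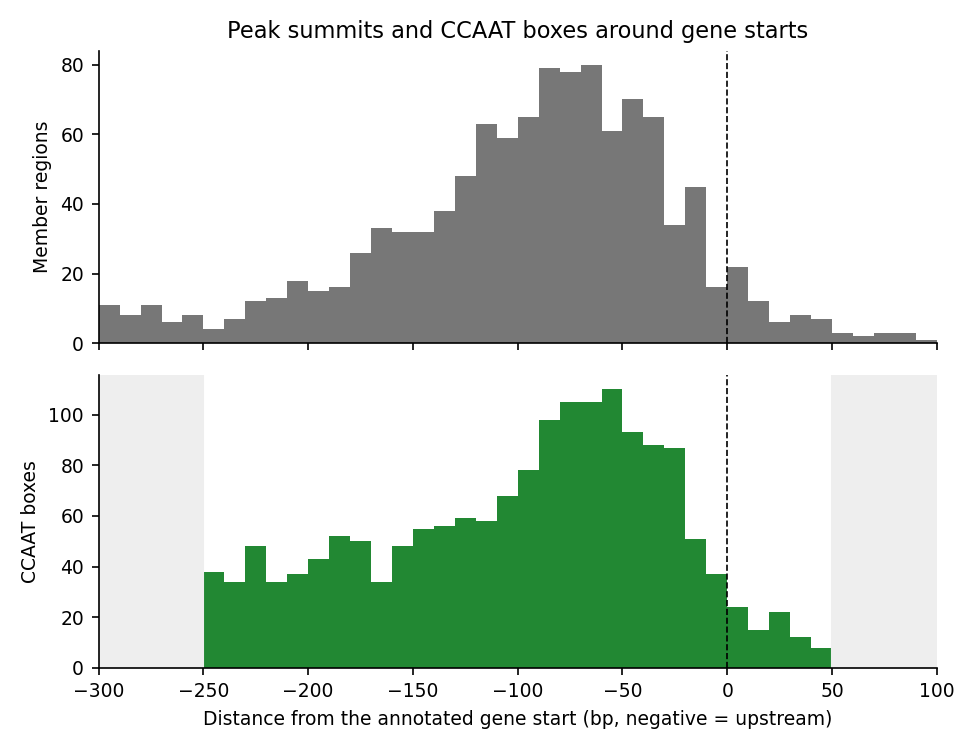
Distribution of member summits (top, median over libraries) and of CCAAT boxes in member promoter windows (bottom) by distance from the gene start in bp, with the start as a dashed line and the grey areas outside the 300 bp windows. Summits centre on a median of -90 bp and CCAAT boxes on a median of -86 bp, beside -88 bp for the boxes of all protein-coding windows (not drawn).

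The distance of 1 kb was a threshold of the rule. Just inside it were the regions at Fam161a (972 bp), Prss57 (985 bp) and Jund (996 bp), with mean percentiles of 75.8, 63.8 and 39.9. Just outside were regions nearest Fmc1 (1014 bp) and Iba57 (1017 bp), with 61.2 and 28.4. The values on both sides overlap.

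Promoter windows of 300 bp, from 250 bases before to 50 after the start, were searched for 13 short motifs on both strands. A window overlapped the region for 1152 members. For 157 more a window existed but did not touch the region, and 259 had none. The CCAAT box was found as CCAAT or its reverse complement ATTGG in 767 of the 1152 windows (66.6%, exact 95% interval 63.8 to 69.3). The share was 38.2% over all 21263 windows of 17492 genes. It was 32.4% in the 1291 windows where the best region was found in a single library. With 2, 3, 4 and 5 libraries the share was 36.9, 38.5, 42.1 and 49.5%, with all 6 it was 65.6%, and with no region it was 33.4%. Windows on constant regions near several genes reached 66.8%, so the share was not special to regions near a single gene.

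Base composition did not order the windows the same way. Median GC content was 61.3% in member windows and 61.7% in the windows with a region in a single library, against 56.3% in all windows. The median number of CpG was 22.5, 21 and 13. These binomial intervals cover counting error only, and promoters are not replicates.

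Copies of the box were also frequent. At least 2 copies were found in 44.8% of member windows, against 12.8% of all windows and 7.59% of the single-library windows. At least 3 were found in 20.6% and 3.92% of member and all windows. The mean was 1.43 copies in members, 0.566 in all windows and 0.417 in single-library windows. Either orientation was used, with 48.7% of copies on the reverse strand.

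The height of a member varied with the number of copies. The 385 member windows without a CCAAT box had a median mean percentile of 38.2. With 1, 2 and 3 copies the median was 47.1, 56.0 and 66.5 in 251, 279 and 141 members, and the 96 members with at least 4 copies had 84.2. This order from 0 to at least 4 copies held in each library: the median percentile without a box was 43.4, 41.7 and 36.9 in vehicle replicates 1, 2 and 3 and 41.7, 43.0 and 37.4 in the estradiol libraries. With at least 4 copies it was 85.3, 85.4 and 87.2 in vehicle and 84.1, 85.9 and 87.2 in estradiol. In median fragments this is 7, 11 and 14 against 13, 21.5 and 37.5 for vehicle, and 9, 11 and 11 against 18, 21 and 30 for estradiol. The quartiles of neighbouring copy numbers overlap, 26.6 to 56.2 without a box and 30.4 to 61.7 with 1.

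Read the other way, the share of members with a box was 47.9, 58.0, 74.3 and 86.1% from the lowest to the highest height quartile of members, 288 in each, by mean percentile. When height quartiles were formed in each library by itself, the lowest held 57.3, 54.5 and 50.0% in vehicle and 54.2, 53.1 and 52.8% in estradiol. The highest held 83.0, 84.4 and 91.0% in vehicle and 82.6, 82.3 and 89.9% in estradiol. Median GC content was 62.7% in the lowest height quartile and 60.2% in the highest.

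**Figure D3:**
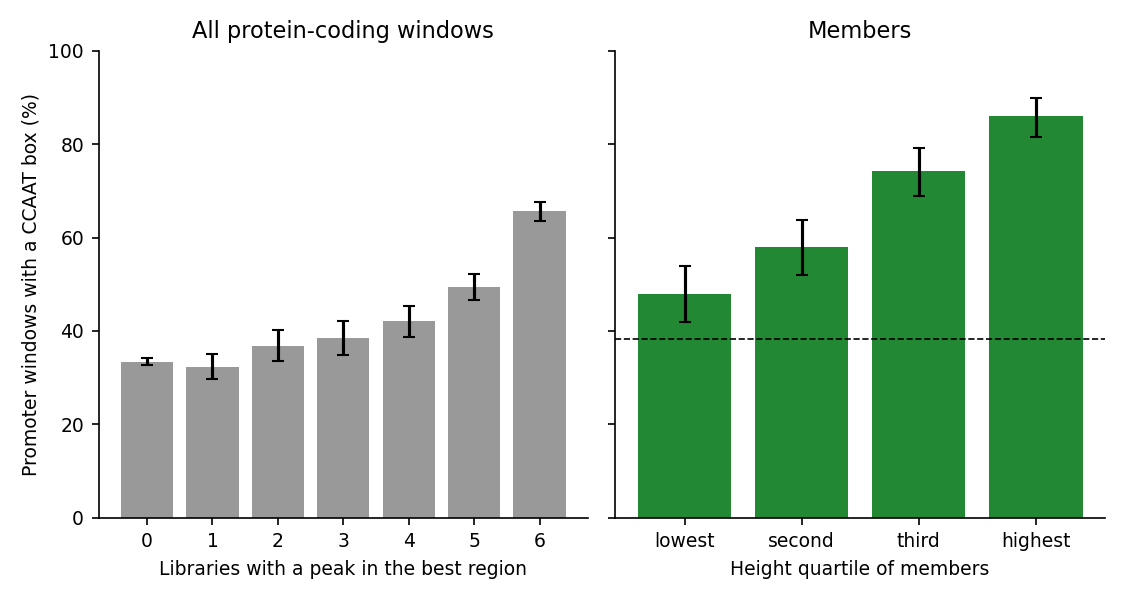
Percent of 300 bp promoter windows with a CCAAT box, for all protein-coding windows by the number of libraries in their best region (left) and for members by height quartile (right), with exact 95% binomial intervals as bars; the dashed line is the 38.2% of all windows. The share is 65.6% with all 6 libraries and, among members, goes from 47.9% to 86.1%.

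Summits and boxes lay at like distances from the start. The median box position was -86 bp in member windows and -88 bp in all windows. Position alone thus brings the summit and the box near each other, and how near was not tested. The measure was the distance from the median summit to the nearest CCAAT centre, in the 727 members with a box and the summit inside the window. It had a median of 18.5 bp (quartiles 9.75 and 38), and 54.5% were within 20 bp. More copies shorten this distance by themselves, so members with exactly 1 copy were also taken alone: 228 had a median of 39.5 bp, with 29.4% within 20 bp. Regions found in a single library had 47 bp (459 regions) and, with exactly 1 copy, 55 bp and 21.0% within 20 bp (353). These rest on the summit of a single library, while the member values above use the median summit over libraries. Measured in each library by itself, members with exactly 1 copy had medians of 48, 41 and 42 bp in vehicle. In the estradiol libraries these were 42, 44 and 42 bp. From the lowest to the highest height quartile of members, the distance from the median summit had a median of 34.3, 21.5, 18.5 and 14 bp. The mean number of copies was 0.774, 1.03, 1.55 and 2.36. With exactly 1 copy the distance was 52.5, 34.5, 34.3 and 26.8 bp, in 68, 66, 66 and 28 members. For the GC box GGGCGG the median was 40.5 bp, and 62 bp with exactly 1 copy. The ETS-type motif CCGGAAG gave 64.5 bp, the NRF1-type motif GCATGCGC 50.5 bp and the E-box CACGTG 45.5 bp. With exactly 1 copy these gave 71, 55.5 and 48.5 bp in 156, 53 and 115 members, beside the 39.5 bp of CCAAT. Positions of the other motifs in the window are not given here. How far position alone sets the distances of the motifs apart was not tested.

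In the 273 members with exactly 2 boxes, the summit lay between them in 161 (59.0%), and in 93 of the 180 with boxes at most 60 bp apart (51.7%). It was a median of 16.5 bp from the nearer box and 22.5 bp from the midpoint. The spacing windows that follow were chosen after the spacings had been seen. Neighbouring boxes of members were 40 to 45 bp apart, centre to centre, in 16.6% of 880 pairs, against 10.1% of 3916 pairs in all windows, members included. Spacings of 29 to 34 bp made up 14.5% and 11.8%, and the stretch between, 35 to 39 bp, 5.91% and 5.75%. Windows on constant regions near several genes had 12.5% of 535 pairs at 40 to 45 bp and 16.6% at 29 to 34 bp. The order of these spacings was thus the reverse of that in members. The Tmem94 boxes above lie within the spacing of 40 to 45 bp.

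The palindromic estrogen response element was rare in promoter windows of every kind. Its letters GGTCANNNTGACC were found in none of the 1152 member windows, none of the 1291 single-library windows and 11 of all 21263 (0.0517%). At so low a background share, none in the member windows is no result about members. The single arm AGGTCA was in 10.1% of member windows, 14.7% of all and 9.99% of the single-library windows. Absence from these windows says only that these letters do not occur there. Among elements of general promoter factors, GGGCGG was in 76.1% of member windows, 46.2% of all and 67.8% of single-library windows. CCGGAAG was in 17.9, 11.6 and 19.3%, GCATGCGC in 8.59, 3.52 and 6.12%, and AAGATGGC, a YY1-type motif, in 7.03, 3.05 and 5.58%. Upstream of the start alone, AAGATGGC was in 2.43% of member windows and 1.5% of all. The E-box CACGTG was in 12.4, 7.84 and 9.91%, the cyclic AMP element TGACGTCA in 4.34, 2.23 and 4.11%, and ACTACAA in 5.56, 3.6 and 4.03%. Lower in members than in all windows were TATAAA (5.38, 12.6 and 6.12%), the AP-1 motif TGANTCA (3.65, 6.99 and 2.94%) and TTTGAA (10.4, 16.0 and 10.1%). Except for CACGTG and ACTACAA, the single-library windows were nearer to the members than to all windows for each of these motifs, and for CCAAT they were not. CCGGAAG went against CCAAT, though not in steady steps. It was in 25.5% of member windows without a CCAAT box and in 21.1, 10.4 and 14.2% of those with 1, 2 and 3. With at least 4 boxes it was in 6.25% of 96 windows. GGGCGG was in 77.1% of windows without a box and in 75% of those with at least 4.

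Gene groups differed in how many of their genes carried a member, beside 7.05% of all protein-coding genes. The groups were compared as counts only. Cholesterol synthesis had the highest share among the 30 groups, with 12 of 22 genes (54.5%). Its highest member was at Hmgcs1, the synthase that makes HMG-CoA, with 26, 27 and 37 fragments in vehicle and 23, 36 and 27 in estradiol. Msmo1, a sterol oxidase, had 12, 28 and 40 against 17, 18 and 31, and Mvd, the decarboxylase of the mevalonate pathway, 17, 15 and 27 against 14, 19 and 21. All 7 promoter windows of the group that touched a member held a CCAAT box, with a mean of 2.29 copies.

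Genes of protein folding in the endoplasmic reticulum followed, with 9 of 23 (39.1%). They also had high peaks, with a median mean percentile of 86.9 beside 49.2 over all member genes. Hspa5, the chaperone BiP, held 18, 36 and 53 fragments in vehicle and 32, 35 and 45 in estradiol. Sel1l, a scaffold of protein disposal, had 15, 29 and 52 against 26, 29 and 33, and Calr, the chaperone calreticulin, 22, 32 and 37 against 28, 42 and 25. Vehicle and estradiol counts overlapped in all 3. All 9 windows held a CCAAT box, with a mean of 2.44 copies.

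Cytosolic ribosomal proteins had 27 of 84 genes (32.1%), led by Rplp0 with 16, 28 and 62 fragments in vehicle and 19, 24 and 44 in estradiol. Of their windows, 9 of 20 (45%) held a CCAAT box. Genes of mitosis had 11 of 43 (25.6%), with a box in 8 of 9 windows and a mean of 2.78 copies. DNA replication had 7 of 43 (16.3%), with a box in 5 of 5. Histones had 18 of 100 (18.0%), while 34 had a constant region shared with another gene. The highest was at H2bc14, with 22, 45 and 59 fragments in vehicle and 42, 27 and 71 in estradiol, and 10 of 13 windows held a box. Circadian clock genes had 5 of 21 (23.8%: Ciart, Cry2, Csnk1d, Per1 and Tef), with a median mean percentile of 88.3. Ciart, a repressor of the clock, had 16, 26 and 35 fragments against 23, 22 and 33.

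Other housekeeping groups also lay above the background. The nuclear pore had 5 of 19 genes (26.3%), the proteasome 9 of 39 (23.1%) and ubiquitin conjugating enzymes 6 of 31 (19.4%). The spliceosome had 12 of 63 (19.0%), RNA polymerase II with mediator and TFIID 10 of 55 (18.2%), tRNA synthetases 6 of 35 (17.1%) and chaperones 13 of 80 (16.3%). Translation factors had 9 of 56 (16.1%), chromatin regulators 12 of 75 (16.0%), DNA repair 7 of 53 (13.2%), oxidative phosphorylation 11 of 86 (12.8%) and cilia and centrosome 10 of 92 (10.9%). Zinc finger genes named Zfp had 43 of 394 (10.9%). Mitochondrial ribosomal proteins, with 6 of 78 (7.69%), were near the background.

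**Figure D4:**
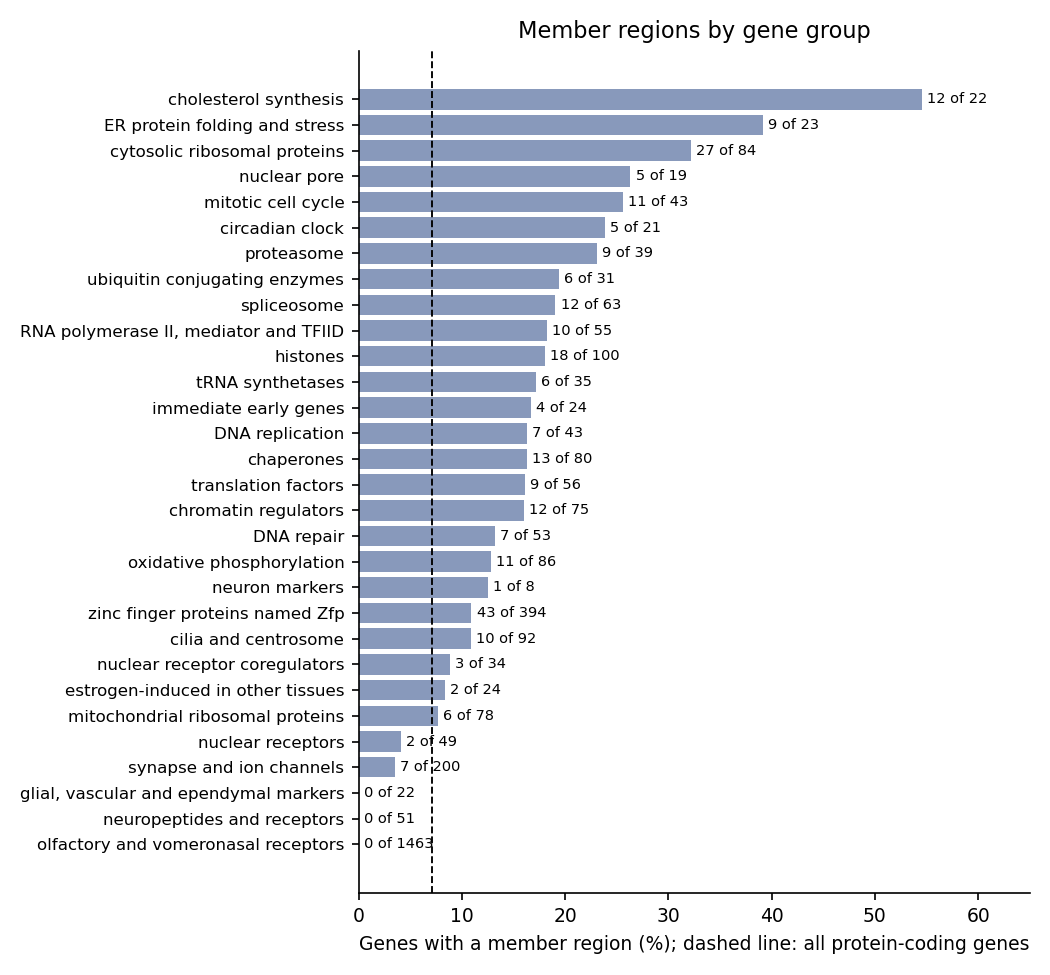
Percent of the genes of each group with a member region, with the counts beside the bars and the 7.05% of all protein-coding genes as a dashed line. Cholesterol synthesis is at 54.5%, and the 3 groups at the bottom are at 0.

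Groups tied to estrogen or to neurons were mostly near or below the background. Nuclear receptors had 2 of 49 genes (4.08%: Nr2c2 and Rara), coregulators 3 of 34 (8.82%: Ncoa4, Ncoa5 and Prmt1) and genes induced by estrogen in other tissues 2 of 24 (8.33%: Egr1 and Rara). Prmt1, an arginine methyltransferase, had the highest peak of these, with 17, 51 and 67 fragments in vehicle and 26, 46 and 74 in estradiol. Immediate early genes had 4 of 24 (16.7%: Egr1, Jun, Jund and Klf6). Synapse and ion channel genes had 7 of 200 (3.5%), led by Gria1, a subunit of AMPA receptors, with 19, 24 and 36 against 33, 28 and 34. No member lay at any of 51 neuropeptide and neuropeptide receptor genes or of 1463 olfactory and vomeronasal receptor genes. Expression was not measured, so tissue markers show only which marker genes carry a member: Syt1 of 8 neuron markers, and none of 22 markers of glia, vessels and ependyma.

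On the X chromosome 19 of 966 genes (1.97%) had a member, beside 9.78% on chromosome 8, the highest share. On the Y chromosome it was Eif2s3y of 256 genes. An end of a non-coding gene lay within 1 kb of 317 members (20.2%), mostly of long non-coding RNAs (258 members), so the end of a single protein-coding gene is not always the only annotated end there.

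The groups were compared in 3 values per library, each the median over members. None passed the exact test. The summit lay at -93, -91 and -89 bp from the gene start with vehicle (-91 ± 2, SD, n = 3) and at -92, -92 and -88 bp with estradiol (-90.7 ± 2.31, SD, n = 3). The difference was 0.333 bp (two-sided exact permutation p = 1). It was 0 bp within replicates 1 and 2 and 1 bp within replicate 3, whose labels and peak names have another style. The median height percentile was 51.4, 52.0 and 51.1 in vehicle and 52.3, 54.1 and 50.2 in estradiol, a difference of 0.669 (exact p = 0.7). Members make up 54.8% of the regions ranked, which holds their median near the middle, so this value could not show a change common to the members. The difference was 1.47 within replicates 1 and 2 and -0.926 within replicate 3, so its direction did not hold in both. The summit-to-CCAAT distance was 21, 18 and 17 bp in vehicle and 21, 19 and 17 bp in estradiol, a difference of 0.333 bp (exact p = 1). It was 0.5 bp within replicates 1 and 2 and 0 bp within replicate 3. The 3 exact tests have an adjusted p of 1 each (Benjamini-Hochberg), and 0.1 is the lowest p that 3 libraries a group allow.

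Member by member, all 3 estradiol percentiles lay above all 3 vehicle percentiles at 60 of the 1568 members (3.83%), and 4.09% of the 2863 constant regions did so. The reverse held at 52 members (3.32%), and at 3.67% of the 2863. The members' shares are thus near the background in both directions and are no result about them. Casp8ap2, a caspase 8 associated protein, had the largest difference upward. It held 5, 8 and 19 fragments in vehicle and 14, 20 and 22 in estradiol, percentiles of 7.86, 16.4 and 66.0 against 79.2, 85.4 and 82.1. The counts overlap, with 19 in vehicle replicate 3 above 14 in estradiol replicate 1, while the percentiles do not. Cpsf1, a subunit of the factor that cleaves pre-mRNA for polyadenylation, had 6, 6 and 6 against 9, 13 and 12. Micos10, Myt1l and Cdc34 followed, with mean percentile differences of 42.2, 41.4 and 37.9.

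Mdm1, a microtubule-binding centriole protein, had the largest difference downward, with 11, 12 and 16 fragments in vehicle and 7, 9 and 8 in estradiol. Its percentiles were 75.9, 64.2 and 55.0 against 20.7, 30.7 and 18.5. Brwd3 had 8, 16 and 20 fragments against 7, 6 and 11, and Macrod2 had 9, 9 and 17 against 6, 7 and 5. Adamts17 and Scai followed, with mean percentile differences of -35.8 and -35.3. All 10 named members have at most 24 fragments in any library, where a few fragments move a percentile far, and none was tested singly.

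**Figure D5:**
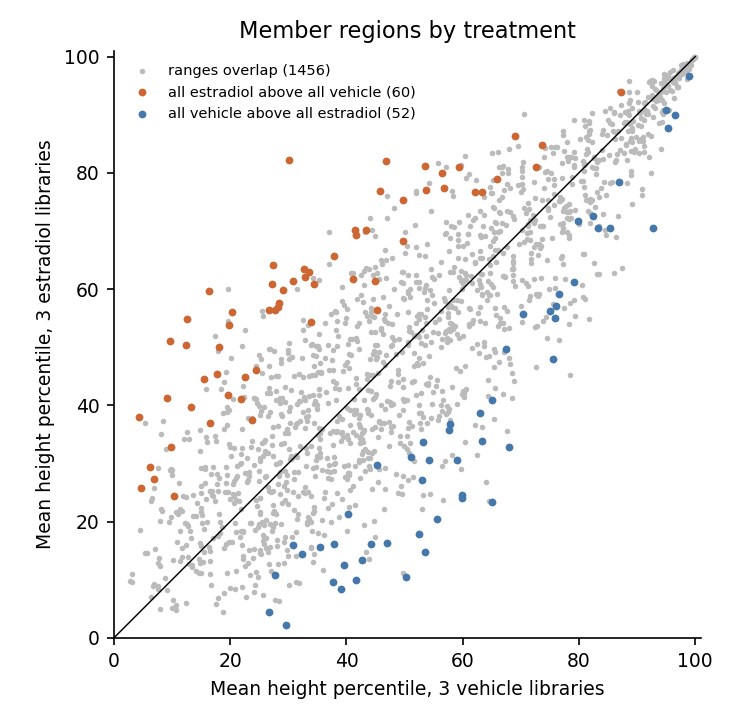
Mean height percentile of the 1568 members in the 3 vehicle libraries (x) and the 3 estradiol libraries (y), one point per member, with the diagonal of equal values. Coloured points are the 60 and 52 members whose percentiles do not overlap between groups, and they lie on both sides of the diagonal.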

How the data were processed

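ERα CUT&RUN was measured in 6 libraries, 3 vehicle and 3 estradiol, each with 1 deposited peak list. Per the submitters' processing notes, the authors used cutadapt, Bowtie2, Picard, SAMtools, deepTools and MACS2 with the mouse build mm10; versions, settings and any control library for the peak calls are not given in the sources used here. The names of peaks in the deposited lists carry a q of 0.01. Every peak in the deposited lists has a fold enrichment, a −log10 p-value, the matching −log10 q-value, an integer score and a summit offset. The peak names point to 1 library per list.

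Peaks that overlapped or touched were merged, and regions were placed against the protein-coding gene spans of RefSeq (GRCm38.p6). Height percentiles were ranks by −log10 q within a library. Summit fragments were the whole number that matched the fold, with 1 added to both parts, and the Poisson p-value; a match within 0.0002 was found for 100% of peaks in each library. Starts, strands and sequences came from the RefSeq promoter table. Calculations used Python 3.11.15, NumPy 2.4.6, pandas 2.3.3 and SciPy 1.17.1, and the scripts were tested on simulated data. Shares have exact 95% binomial intervals, which cover counting error only. The group comparisons used exact permutation tests over libraries, two-sided.

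The members, the gene lists and the motifs were chosen with earlier results of these data known. Named are the 20 highest and 5 lowest members by mean percentile, the 3 highest of each gene list, the 5 with the largest difference in each direction among those whose percentiles do not overlap, and the 3 on either side of the distance threshold; some of these are not reported here. The other members named, those at far gene ends and those in pairs, were picked after their values were seen, as were the single-copy distances, the spacing windows and the breakdown by copy number. Alternatives covered the distance, merging, peak threshold, list length, ranked value, promoter window and each library left out. Genome sequence and exons were not used here.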

Additional observations from a re-analysis of the deposited data

How the results depend on the processing

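The number of members was 813 with peaks of −log10 q of at least 5 and 1039 with lists cut to 5421 peaks each. Without each library in turn it was 1570 to 2368, the latter without vehicle replicate 1. The estradiol minus vehicle difference in median summit distance became -2.67 and -1.33 bp under the same first 2 settings, and ranged from -0.833 (without estradiol replicate 3) to 1.33 bp with a library left out. The difference in median percentile ranged from -0.215 (without estradiol replicate 2) to 1.73 (without estradiol replicate 3). The latter had an exact p of 0.1, the lowest that 3 against 2 libraries allow, and the other alternatives 0.6 to 1. The exact tests cannot give a p under 0.1, and the cause of the changes of sign was not tested. Members with estradiol above vehicle in every library numbered 32 at the stricter threshold and 119 to 202 with a library left out; the reverse numbered 25, 31 with lists of equal length, and 104 to 177. The shares of members, beside those of all constant regions, were 3.94 and 3.70% up and 3.08 and 3.77% down at the stricter threshold, and 3.85 and 4.11% up and 2.98 and 3.51% down with equal lists. Leaving a library out loosens this criterion by construction: 7.47 to 10.1% of members and 8.13 to 10.3% of all constant regions were then up, and 6.45 to 9.43% and 7.39 to 10.1% down.

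The CCAAT share was 74.7 and 73.2% at the stricter threshold and with equal lists, 62.1 to 66.5% without a library, and 86.1% in the highest height quartile. Upstream of the start alone, GGGCGG was in 70.2%, CCGGAAG in 14.4% and AAGATGGC in 2.43% of member windows. In that quartile, CCGGAAG was in 11.1%, GCATGCGC in 5.56%, TATAAA in 9.72% and TTTGAA in 13.2%. The alternatives for the CCAAT share other than the window and the quartile were added after the data were seen.

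Replicate numbers are shared by the groups, and the deviations of same-numbered libraries correlated at 0.127, 0.00515 and 0.276. Vehicle replicate 3 correlated at -0.187 and -0.104 with estradiol replicates 1 and 2. Estradiol replicate 3 correlated at -0.203 and -0.0477 with vehicle replicates 1 and 2. Across the groups, the replicate 3 libraries were thus more like each other than like libraries of other numbers, while replicates 1 and 2 showed little pairing by number. Libraries of the same group are not compared here. The main tests did not pair libraries, and blocked values are given beside them. With the replicate block, 191 members were higher under estradiol in all 3 pairs and 187 lower, 12.2 and 11.9% of members beside 12.5 and 12.2% of all constant regions; the difference in median percentile kept its value, with an exact paired p of 0.75, and those in summit distance and in summit-to-CCAAT distance had an exact paired p of 1. Summits of 4 or 5 fragments limit what a rank can resolve.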

Other observations

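The 24 genes with a pair of members often had unequal regions. At Calm3, a calmodulin gene, the region nearer to the gene held 25, 53 and 73 fragments in vehicle and 32, 40 and 72 in estradiol, and the other held 12, 18 and 21 against 9, 14 and 19. At Mlec, a lectin of the endoplasmic reticulum, the mean percentiles were 89.2 and 13.0, and at Lsm4, a subunit of the U6 snRNP, 87.1 and 14.9. At Opa3 the region farther from the gene span was the higher, with a mean percentile of 93.8 beside 39.4. Both Ube2d3 regions were low, at 21.8 and 20.7. These are values of regions picked after they were seen.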
